A study of Danio rerio with 20 samples.

Results

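The mRNAs described here are 452 maternal mRNAs of the zebrafish embryo. Control embryos held them at 2 and 3 hours post fertilization (hpf), still held them at 4 hpf and had largely cleared them by 5 to 6 hpf. They are 452 of 32105 named entries of the deposited table. A rule on their values in control embryos chose them, with some names left out and with earlier results of these data known. An mRNA entered with at least 20 CPM (reads scaled to the same library total, which leaves out 2 mitochondrial rRNA entries) in each of the 3 early control libraries, more than 50% of its 2 hpf value at 4 hpf, and at most 16.7% of its early value in the late control library of each of 3 experimental sets. Of 7421 genes at or above 20 CPM in all early controls, 467 met every value of the rule. Among these 467, 15 were left out by name (8 single genes and the zona pellucida, claudin, znf, kinesin and Rab names in lower case), which gave the 452. The 8 single names of the rule were btg4, zar1l, buc, lipg, pld1a, lipin2, svila and cry1ab. The rule matched lower case, so 2 entries with a zona pellucida or ZNF name in capitals stayed among the 452. All 452 passed the filters on low counts used below. Just inside the late limit lay sgpl1 at 16.59%, slc30a9 at 16.64% and abhd10a at 16.66% of the early level in their highest set. Just outside lay rnf175 at 16.68%, HPS6 at 16.68% and klhdc10 at 16.68%.

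The series asked what the terminal uridylyltransferases TUT4 and TUT7 contribute to maternal mRNA degradation in the zebrafish maternal-to-zygotic transition. Embryos of the AB strain from natural matings were injected at the 1-cell stage with about 1 nl of a morpholino, an antisense oligomer labelled here as translation-blocking, and kept at 28.5 °C. Total RNA of whole embryos was sequenced after rRNA depletion in 20 libraries. Set rs1a held 1 library each of a control morpholino (ConMO), a TUT4 morpholino (TUT4MO), a TUT7 morpholino (TUT7MO) and both together (TUT47MO) at 2, 4 and 6 hpf. The sets rs1b, sampled at 3 and 6 hpf, and rs2, sampled at 3 and 5 hpf, had 1 library of ConMO and 1 of TUT47MO for each time. Early here means 2 or 3 hpf and late means 5 or 6 hpf, so ConMO and TUT47MO have 3 early and 3 late libraries, and every other group has 1. All groups were injected, and every knockdown is by morpholino and not by mutation. Because these morpholinos block translation, the level of a target mRNA is no check of the knockdown. Embryos and clutches per library are not stated in the labels, and p-values reflect only how far these libraries vary.

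An egg carries mRNAs made by the mother, and the embryo lives on them until its own genome is transcribed. Maternal mRNAs are then removed in waves, some by factors already in the egg and others by products of the zygotic genome, such as the microRNA miR-430 in zebrafish. Removal usually starts with shortening of the poly(A) tail; TUT4 and TUT7 add uridines to short tails, and oligouridylated ends are bound by the LSM1 complex and by exonucleases that degrade the mRNA.

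Libraries held 11914213 to 32788262 estimated reads. Mitochondrial rRNA took 44.6 to 51.6% of them in the 4 rs1a libraries at 6 hpf and in TUT7MO and TUT47MO at 4 hpf, but 13.5 and 14.4% in TUT4MO and ConMO at 4 hpf, 9.88 to 11.7% at 2 hpf and 1.17 to 9.54% in rs1b and rs2. These entries stayed out of CPM. Levels below are CPM scaled by TMM over all 20 libraries, called scaled CPM, and changes are differences of log2(scaled CPM + 1), which understate the change of low values. Summed early zygotic genes and markers of the enveloping layer, mesendoderm and yolk syncytial layer were lower in late TUT47MO than in late ConMO libraries. The 91 early zygotic genes that are not among the 452 summed to 33330, 36650 and 25200 scaled CPM in late ConMO of rs1a, rs1b and rs2, and to 8263, 8188 and 10530 scaled CPM in late TUT47MO. The summed level of 16 enveloping layer markers was 8661 to 13180 scaled CPM in late ConMO and 1797 to 3243 in late TUT47MO, with 0 markers at 0 in any of these libraries, and that of 20 mesendoderm markers was 2859 to 4955 and 665.8 to 999.5. The 13 yolk syncytial layer markers summed to 922.6 to 1192 and 377.6 to 622.5, and 6 germ cell markers outside the 452 to 627.8 to 720.4 and 601.7 to 671.9. Of these 6 germ cell markers 3 were called higher and 1 lower in late TUT47MO than in late ConMO. The lower one was ddx4, at 238.7 to 257.0 scaled CPM in late ConMO, so the near-equal sums hide changes both ways. In these bulk samples fewer cells of a type and less RNA per cell cannot be told apart, and the part of these differences in the results below was not tested.

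In control embryos the 452 mRNAs fell late and steeply. Their median level was 75.6 scaled CPM at 2 hpf in rs1a, 73.0 at 3 hpf in rs1b and 73.4 at 3 hpf in rs2. The medians of the 7421 genes at or above 20 CPM early were 74.1, 73.0 and 76.4. In rs1a the median mRNA kept 79.3% of its 2 hpf level at 4 hpf and 12.3% at 6 hpf. The late share was 10.9% for rs1b (6 hpf) and 17.4% for rs2 (5 hpf; mean of the 3 medians 13.5 ± 3.41, SD, n = 3). All the mRNAs together went from 50200 to 5997 scaled CPM in rs1a, from 49160 to 5242 in rs1b and from 51290 to 8580 in rs2. These values selected the 452 mRNAs, and they are given as a description with no test. On the scaled values some lie above the 16.7% of the rule, because late ConMO levels were divided by TMM factors of 0.75 to 0.77. At or under 16.7% stayed 352, 386 and 199 mRNAs in rs1a, rs1b and rs2.

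In TUT47MO embryos, whose libraries did not enter the values of the rule, the same mRNAs also fell, but kept a larger share of the early level. The median share left was 41.4% for rs1a, 43.3% for rs1b (both 6 hpf) and 49.0% for rs2 (5 hpf; mean of the 3 medians 44.6 ± 3.93, SD, n = 3). The 3 TUT47MO medians thus lay above all 3 ConMO medians. The rule chose mRNAs with low late ConMO shares, which favours such a gap, so it is a description. Of the 452 mRNAs 432 were called lower late than early in TUT47MO and 0 were called higher, against a background of 18.6% of 16721 genes called lower and 11.2% called higher (limma, Benjamini-Hochberg adjusted p under 0.05, set as block). Among the 7421 genes at or above 20 CPM early, 28.9% were called lower. The median change of the 452 mRNAs was −1.13 on the log2 scale in TUT47MO, with a range from −2.998 to −0.32, beside −0.08 over all genes tested. In ConMO the median of the same mRNAs was −2.78, with a range from −4.49 to −2.08, as the rule required.

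The fall in TUT47MO was seen set by set. Its median was −1.25 in rs1a, −1.17 in rs1b and −1.01 in rs2, and 448 of 452 mRNAs were below 0 in all 3 sets. The 4 others were cpt2 and zgc:162183, at 102.9% and 108.2% of their early level in rs2, and dab2 and grk6, at 108.3% and 101.2% in rs1a. The share of all genes below 0 in all 3 sets was not counted. Highest late and lowest early TUT47MO values did not overlap for 417 of the 452 mRNAs, as for 21.9% of all genes tested. More than 50% of the early level was left in all 3 TUT47MO sets for 74 mRNAs. By set, 30.3, 29.65 and 47.8% of the mRNAs kept more than 50% in TUT47MO of rs1a, rs1b and rs2. Of the 7421 genes at or above 20 CPM early, 81.0, 84.2 and 89.4% did. At most 16.7% was left in any TUT47MO set for 12 mRNAs, and in all 3 sets for only 1, si:ch211-136m16.8 at 10.4, 13.0 and 8.997%. By set these were 2.43, 0.885 and 0.221% of the mRNAs, beside 0.701, 0.256 and 0.0674% of the 7421 genes. The count of 432 rests in part on the sets and on the scaling: it was 286 without rs1b, 314 without rs1a, 444 without rs2 and 234 with the values scaled as deposited. The count over all genes moved with it, from 3107 of 16721 in the main fit. In the same order it was 1224 of 16987, 1248 of 16873, 4841 of 17221 and 1046 of 16721. Under all 13 alternatives at once 223 of the 432 were called, and 280 without each set in turn. These last counts were not made over all genes.

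**Figure D1:**
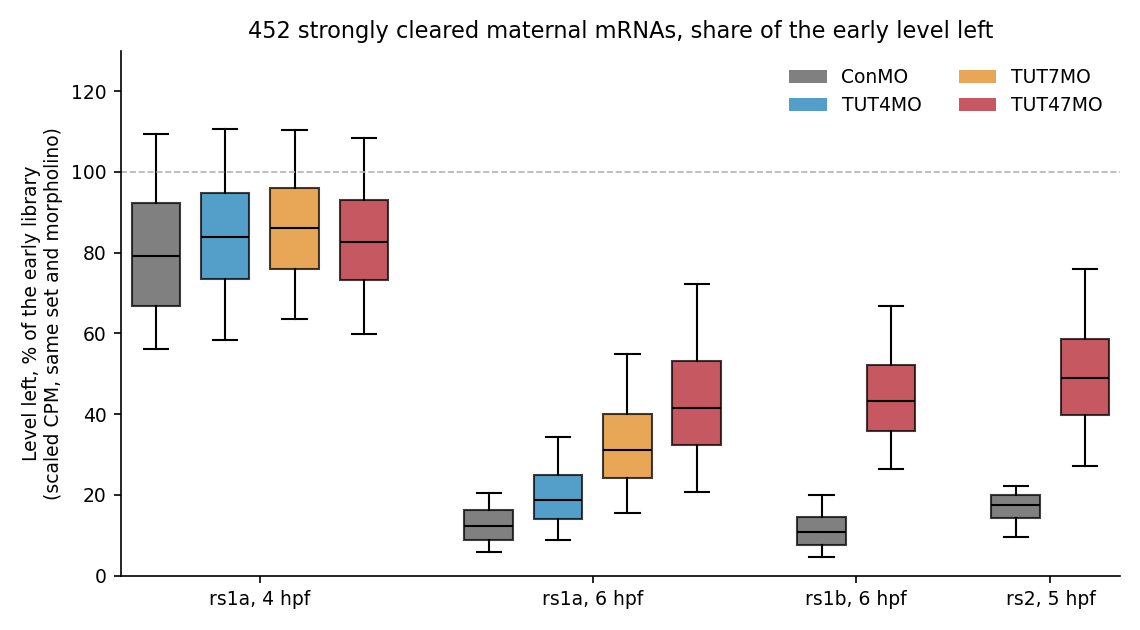
Share of the early level left for the 452 mRNAs in each later library, in percent of the 2 or 3 hpf library of the same set and morpholino (linear axis). Boxes span the quartiles over mRNAs with the median as a line, and whiskers run from the 5th to the 95th percentile. At 4 hpf the 4 medians lie between 79.3 and 86.2%, and at 6 hpf in rs1a they rise from 12.3% in ConMO over 18.8% in TUT4MO and 31.1% in TUT7MO to 41.4% in TUT47MO.

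**Figure D2:**
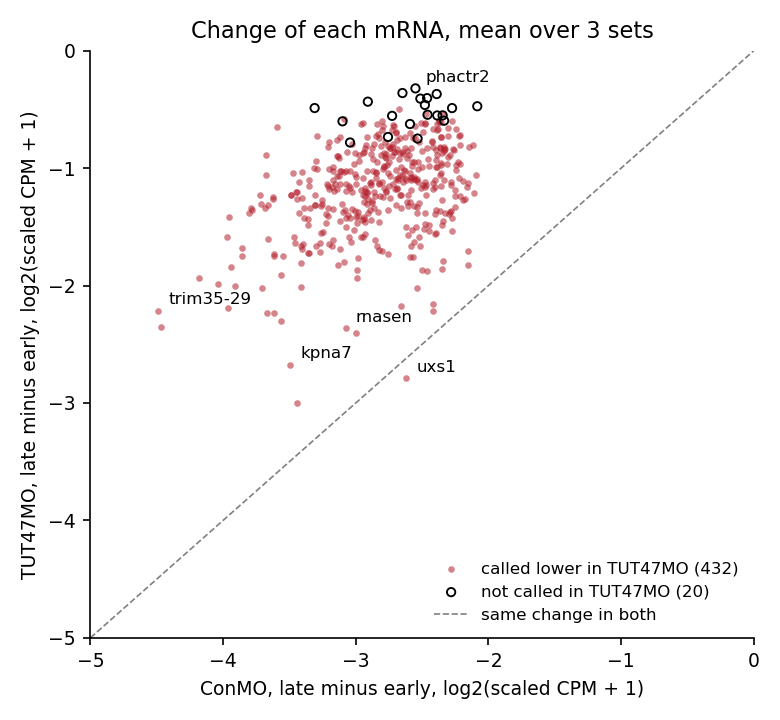
Change from early to late of each mRNA, mean over 3 sets on the log2(scaled CPM + 1) scale, in ConMO (x axis) and TUT47MO (y axis), with 1 point per mRNA. The 432 mRNAs called lower in TUT47MO are filled, the 20 not called are open, and the dashed line marks the same change in both. uxs1 lies below the line (−2.62 in ConMO and −2.79 in TUT47MO).

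The mRNAs most abundant in early control embryos show the pattern in single libraries. The rule asked for low late ConMO values, so late levels set beside ConMO, here and for single mRNAs below, are a description. The highest by the mean over the 3 sets was mid1ip1l (ENSDARG00000018145), known in zebrafish as the maternal-effect gene aura, which acts on the cortical cytoskeleton and on germ plasm movement. Its ConMO level went from 864 scaled CPM at 2 hpf over 643 at 4 hpf to 85.7 at 6 hpf in rs1a, from 1030 to 87.8 in rs1b and from 695 to 121 in rs2. In TUT47MO it went from 914 over 715 to 320 scaled CPM in rs1a, from 1052 to 375 in rs1b and from 710 to 614 in rs2. TUT4MO and TUT7MO held 198 and 176 scaled CPM of mid1ip1l at 6 hpf. Every late TUT47MO library was above every late ConMO library, and the fall in TUT47MO was smallest in rs2, at −1.07 ± 0.30 over the sets (SE, limma adjusted p = 0.0401). The kinase gene mknk2a (ENSDARG00000011373), whose product phosphorylates the cap-binding factor eIF4E, stood at 675, 643 and 58.5 scaled CPM at 2, 4 and 6 hpf in rs1a ConMO and at 685, 703 and 386 in rs1a TUT47MO. It ended at 46.6 and 158 scaled CPM in late ConMO of rs1b and rs2, and at 417 and 599.7 in late TUT47MO. The TUT4MO and TUT7MO libraries held 183 and 255 scaled CPM of mknk2a at 6 hpf, between ConMO and TUT47MO, and the change in TUT47MO was −0.72 ± 0.19 (SE, limma adjusted p = 0.0335).

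The other abundant mRNAs went the same way. For mylipa, the gene of a ubiquitin ligase that targets the LDL receptor, late ConMO libraries held 106, 107 and 108 scaled CPM and late TUT47MO libraries 399.5, 375 and 267 in rs1a, rs1b and rs2. TUT4MO stood at 110.4 scaled CPM of mylipa at 6 hpf, close to ConMO, and TUT7MO at 271. The Polycomb subunit gene phc2b (the entry with the higher level; a second entry with this symbol is also among the 452, so reads could be split between them) held 46.2, 61.3 and 89.1 scaled CPM in late ConMO and 120.5, 181 and 347 in late TUT47MO. Its changes in TUT47MO were −1.65 ± 0.29 and −1.07 ± 0.16 for the higher and the lower entry (SE, limma adjusted p = 0.00831 and 0.00484). For ca15b, a carbonic anhydrase gene whose mRNA marks germ plasm in zebrafish, late ConMO libraries were at 39.9, 39.5 and 66.3 scaled CPM and late TUT47MO libraries at 129, 149 and 219. The actin regulator gene micall2b ran at 39.0, 27.1 and 80.9 against 219, 190.0 and 331 scaled CPM, pdia4, a disulfide isomerase gene of the endoplasmic reticulum, at 55.2, 56.4 and 62.4 against 186, 239.8 and 165, and the spindle gene CKAP2 at 32.6, 25.1 and 53.8 against 119.6, 119 and 150.2. For all 8 the late TUT47MO values were above the late ConMO values with no overlap. The same held for 440 of the 452 mRNAs and for 23.1% of all genes tested. The rule asked for low late ConMO values, so nothing is read from it. Each of the 8 fell in TUT47MO, with changes of −0.98 ± 0.18 for mylipa to −1.81 ± 0.29 for ca15b among the last 6 (SE, limma adjusted p from 0.000844 to 0.00911). Without rs1a the calls of mknk2a (−0.67), mid1ip1l (−0.85), mylipa (−1.05) and micall2b (−1.02) were lost, and without rs1b those of the same 4 (−0.63, −0.86, −1.02 and −0.90).

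**Figure D3:**
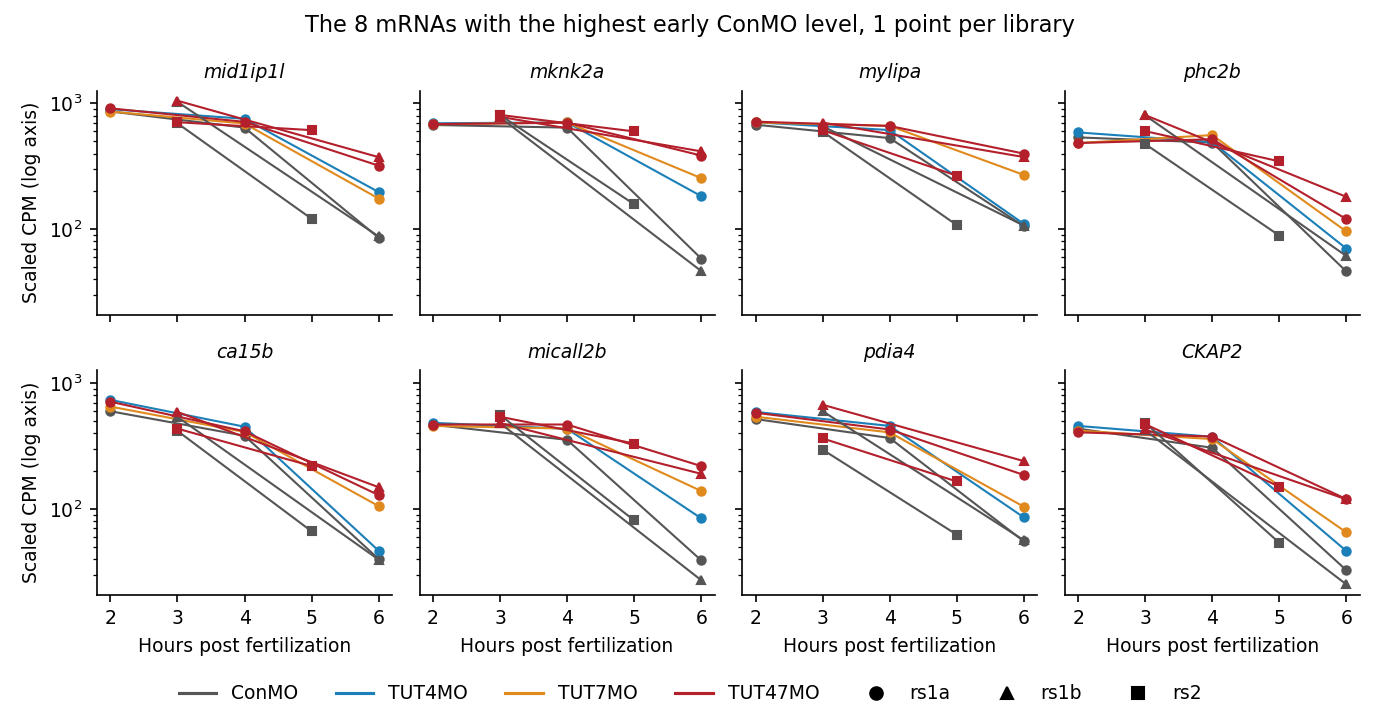
Levels in scaled CPM (log axis) against hours post fertilization for the 8 named mRNAs with the highest early ConMO level, 1 point per library, with lines joining libraries of 1 set and morpholino. For each mRNA the late TUT47MO points lie above the late ConMO points, as in mknk2a with 386, 417 and 599.7 against 58.5, 46.6 and 158 scaled CPM. The rule asked for low late ConMO values, so this is a description.

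At the slow end, 20 mRNAs did not pass the test of a fall in TUT47MO. The smallest changes were those of phactr2, an actin and phosphatase regulator gene (−0.32 ± 0.15, SE, limma adjusted p = 0.166), camsap1b, whose product caps microtubule minus ends (−0.36 ± 0.16, limma adjusted p = 0.135), and tbc1d12b, of a Rab GTPase-activating family (−0.37 ± 0.23, limma adjusted p = 0.276). In camsap1b the TUT47MO level was 192, 172 and 274 scaled CPM early and 168, 114 and 222 late in rs1a, rs1b and rs2, while ConMO went from 220.5, 164 and 264 to 33.9, 23.5 and 45.0. The early and late TUT47MO ranges of camsap1b overlap, and its late ConMO and TUT47MO ranges do not. Next came the tetraspanin gene cd82b (−0.40 ± 0.15), the poly(A) polymerase gene fam46c (−0.41 ± 0.15) and the uridine kinase-like gene uckl1b (−0.43 ± 0.15; limma adjusted p from 0.0758 to 0.0921 for the 3). Without rs2, camsap1b (−0.39), cd82b (−0.33), fam46c (−0.41) and uckl1b (−0.50) were called.

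At the fast end, among mRNAs with no clone or prediction name, stood uxs1, which makes UDP-xylose for glycosaminoglycans. Its level was 54.99, 43.5 and 41.8 scaled CPM in early TUT47MO and 5.31, 4.28 and 8.78 in late TUT47MO, a change of −2.79 ± 0.25 (SE, limma adjusted p = 0.00102). Late ConMO libraries held 7.22, 7.20 and 7.06 scaled CPM of uxs1, and TUT4MO and TUT7MO 4.73 and 5.34 at 6 hpf. These ranges overlap, and the late difference between TUT47MO and ConMO was −0.25 ± 0.18 (limma adjusted p = 0.246). The importin gene kpna7, an oocyte form in vertebrates, went from 277, 238.5 and 124 to 26.5, 26.8 and 41.0 scaled CPM in TUT47MO (−2.67 ± 0.34, limma adjusted p = 0.00311). It stood at 15.0, 14.2 and 22.1 scaled CPM in late ConMO, below all 3 late TUT47MO libraries. The next largest falls in TUT47MO, again with clone and prediction names left out, were those of rnasen, the gene of the microRNA-processing nuclease Drosha (−2.36 ± 0.14), and ghdc (−2.31 ± 0.18). The sugar transporter gene slc2a15b (−2.24 ± 0.25) and the transcription factor gene tshz3a (−2.24 ± 0.19) followed (limma adjusted p from 0.00025 to 0.00193 for the 4). All 6 kept their call without any 1 set.

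How far an mRNA fell was related between sets and only weakly to its early level. Across the 452 mRNAs the change in TUT47MO correlated with r = 0.87 between rs1a and rs1b, 0.53 between rs1a and rs2 and 0.57 between rs1b and rs2. Against the mean early TUT47MO level it gave r = −0.04. The change in ConMO and the change in TUT47MO of the same set gave r = 0.49 in rs1a, 0.28 in rs1b and 0.49 in rs2. These values describe 452 mRNAs within shared libraries, which are not independent replicates.

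Set beside the late controls, TUT47MO embryos held more of nearly all these mRNAs. The median level was 33.9, 32.0 and 36.2 scaled CPM in late TUT47MO of rs1a, rs1b and rs2, against 9.18, 7.65 and 12.2 in late ConMO. The lowest late TUT47MO value was above the highest late ConMO value for 440 of 452 mRNAs, as for 23.1% of all genes tested. By limma with Benjamini-Hochberg adjustment 450 of 452 were called higher in late TUT47MO, where 31.9% of 18206 genes were, with a median of 1.71 beside 0.02 over all genes tested. The rule asked for low late ConMO values, so this count is a description and nothing is read from it. The largest differences were those of si:ch73-95l15.5 (2.98), fam65c (2.88) and the phosphoinositide signalling adaptor pik3ap1 (2.77). The pair not called were uxs1 and si:dkey-182g1.2, the latter at 18.3, 17.6 and 21.4 scaled CPM in late ConMO and 24.8, 28.7 and 19.6 in late TUT47MO (0.33 ± 0.16, SE, limma adjusted p = 0.101).

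The difference was also measured in sets whose values did not enter the rule, with the same names left out. Chosen from rs1b and rs2 alone, 521 mRNAs met the rule, and 459 of them (88.1%) were at least 2-fold higher in TUT47MO than in ConMO at 6 hpf in rs1a, against 15.9% of all genes tested. Chosen without rs1b, 426 of 488 (87.3%) were at least 2-fold higher in rs1b, against 16.8% of genes. Chosen without rs2, 776 of 1015 (76.5%) were so at 5 hpf in rs2, against 11.2%. The medians were 1.73, 1.87 and 1.31 for these mRNAs and 0.02, 0.04 and 0.00 for all genes. Among all genes at or above 20 CPM early in the other sets, 23.3, 24.7 and 17.2% were at least 2-fold higher. The mRNAs that entered only because a set was left out numbered 69, 36 and 563. They failed the rule on the ConMO values of that set, so these values did pick them out. Of them 67, 35 and 559 were above 0 in that set, which is a description from which nothing is read. The share above 0 was not counted over all genes. Genes at or above 20 CPM early in the other sets had medians of 0.18, 0.22 and 0.14 in rs1a, rs1b and rs2. Each of these values rests on 1 library a group and has no test.

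At 2 to 4 hpf differences between the groups were small. In the 3 early pairs 0 of 452 mRNAs were called between TUT47MO and ConMO, as were 0% of 18206 genes (limma adjusted p under 0.05). At an unadjusted p under 0.05 were 2 mRNAs and 111 genes. That is fewer genes than such a limit gives with no effect. Early and late pairs shared 1 estimate of the spread in this fit, so 0 calls do not show equal early levels. The early median difference was 0.06 in rs1a, 0.03 in rs1b and −0.01 in rs2, and 450, 452 and 451 of the mRNAs lay within 0.5 of 0. At 4 hpf in rs1a the median share of the 2 hpf level left was 79.3% in ConMO, 83.9% in TUT4MO, 86.2% in TUT7MO and 82.6% in TUT47MO, in 1 library each. The mitochondrial rRNA share was the higher one in TUT7MO and TUT47MO among these 4 libraries, and its part in these values was not tested. Between 2 and 4 hpf the median change was −0.33 in ConMO and −0.27 in TUT47MO, and between 4 and 6 hpf −2.59 and −0.96. Of the 452 mRNAs 451 were lower at 6 than at 4 hpf in TUT47MO, and all 452 were lower in TUT4MO and in TUT7MO. Such a count was not made over all genes. The median of the 7421 genes at or above 20 CPM early went from 95.9% of the 2 hpf level at 4 hpf to 86.7% at 6 hpf in TUT47MO. It went from 99.1 to 82.0% in TUT4MO and from 99.8 to 82.1% in TUT7MO.

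The single knockdowns lay between control and double knockdown. At 6 hpf in rs1a the median level of the mRNAs was 9.18 scaled CPM in ConMO, 15.6 in TUT4MO, 24.6 in TUT7MO and 33.9 in TUT47MO, or 12.3, 18.8, 31.1 and 41.4% of the 2 hpf level. The differences from ConMO share the ConMO library, which the rule used, and had medians of 0.67 in TUT4MO, 1.30 in TUT7MO and 1.77 in TUT47MO. The 3 knockdown libraries can be compared without it. Each is 1 library, so the mRNAs counted here are not replicates, and no test is given. TUT7MO was above TUT4MO for 430 of 452 mRNAs, with a median difference of 0.66 (quartiles 0.43 and 0.87) beside −0.01 over all genes. At least 2-fold higher in TUT7MO were 80 mRNAs (17.7%), against 3.77% of 16851 genes, and 0 were 2-fold lower. TUT47MO was above TUT4MO for 450 mRNAs with a median of 1.09, beside 0.03 over all genes. At least 2-fold higher in TUT47MO were 268, against 6.45% of genes. TUT47MO was above TUT7MO for 419 mRNAs with a median of 0.42, beside 0.02 over all genes. Here 11 were at least 2-fold higher, against 0.896% of genes. The order TUT4MO below TUT7MO below TUT47MO held for 397 mRNAs (87.8%), as it did for 26.4% of all genes. At 2 and 4 hpf the medians of these 3 differences were between −0.02 and 0.03, and 0 mRNAs differed 2-fold. The early zygotic genes summed to 33330, 27620, 9893 and 8263 scaled CPM in ConMO, TUT4MO, TUT7MO and TUT47MO at 6 hpf, and their part in this order was not tested.

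Whether a difference between TUT7MO and TUT4MO passes a test depends on how it is asked. Averaged over 2, 4 and 6 hpf, 0 of 452 mRNAs and 0 of 16851 genes were called (limma adjusted p under 0.05), with 5 mRNAs and 528 genes at an unadjusted p under 0.05. With an effect at 6 hpf only, and the 2 and 4 hpf libraries as baseline, 358 mRNAs were called higher in TUT7MO, against 17.4% of genes, and 3 lower, against 21.7%. That fit was chosen after the data were seen, and assumes that the lone 6 hpf libraries vary like those of 2 and 4 hpf.

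The mRNAs differed in how they stood between TUT4MO and TUT7MO. The largest difference was that of pik3cg, the catalytic subunit gene of phosphoinositide 3-kinase gamma. Its level at 6 hpf was 7.45 scaled CPM in ConMO, 7.10 in TUT4MO, 32.8 in TUT7MO and 34.1 in TUT47MO, so that TUT4MO stood with ConMO and TUT7MO with TUT47MO. In TUT47MO of rs1b and rs2 it was at 24.4 and 10.8 scaled CPM late, against 3.38 and 3.32 in ConMO. The netrin gene ntn4 stood at 6.065, 6.86, 25.15 and 30.8 scaled CPM in the same order of morpholinos, and dcun1d1, which promotes cullin neddylation, at 17.4, 22.5, 71.8 and 86.5. For creb3l3l, of a family of membrane-bound transcription factors, the levels were 4.30, 6.15, 22.6 and 15.6 scaled CPM, with TUT47MO below TUT7MO. The opposite order was rare and small: vps9d1 held 39.1, 59.15, 42.5 and 106 scaled CPM, the chromatin ATPase gene atad2 40.1, 52.3, 39.9 and 74.3, cfap97 15.97, 34.2, 26.2 and 48.7, and arhgap1 38.3, 54.5, 43.7 and 79.4. In these 4 TUT7MO stood 0.31 to 0.47 below TUT4MO on the log2 scale. They are single libraries, and the mRNAs were named for these differences, so no test is given.

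**Figure D4:**
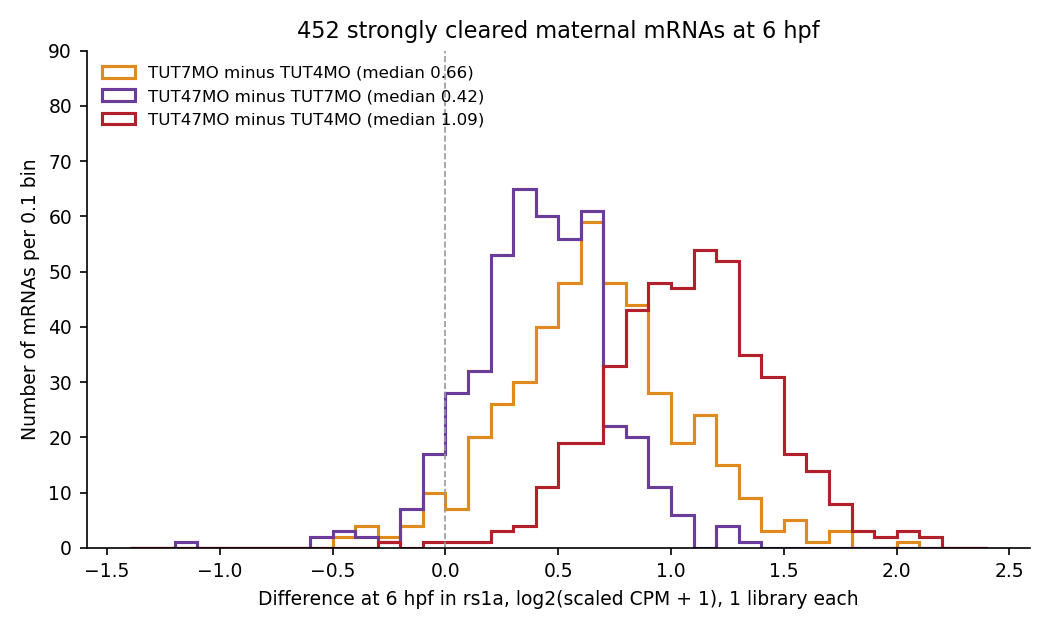
Distribution over the 452 mRNAs of the difference between knockdown libraries at 6 hpf in rs1a on the log2(scaled CPM + 1) scale (x axis), as the number of mRNAs per 0.1 bin (y axis), 1 library each. The medians are 0.66 for TUT7MO minus TUT4MO, 0.42 for TUT47MO minus TUT7MO and 1.09 for TUT47MO minus TUT4MO.

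By role, the mRNAs placed in a group were spread over many functions, and most mRNAs of each group fell in TUT47MO. So did 95.6% of all 452 and 18.6% of all genes tested, and the counts of each group below stand beside these shares. Without rs1a, without rs1b and with the deposited scaling 314, 286 and 234 of the 452 were called lower. Of all genes tested 1248, 1224 and 1046 were. The groups hold 112 symbols, with both phc2b entries, and the other mRNAs of the 452 are in none of them. How many of the 7421 genes at or above 20 CPM early belong to each role was not counted. Nothing is therefore read from the size of a group. The groups were assigned after the member names were known, so they are described without a test. Examples that are on no list were chosen after their values were seen, and except for bmi1a, cbx8b, arpp21 and the lower phc2b entry they were called lower under all 13 alternatives. The median change in TUT47MO ran from −1.49 to −1.02 over 10 groups, close to the −1.13 of all 452.

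**Figure D5:**
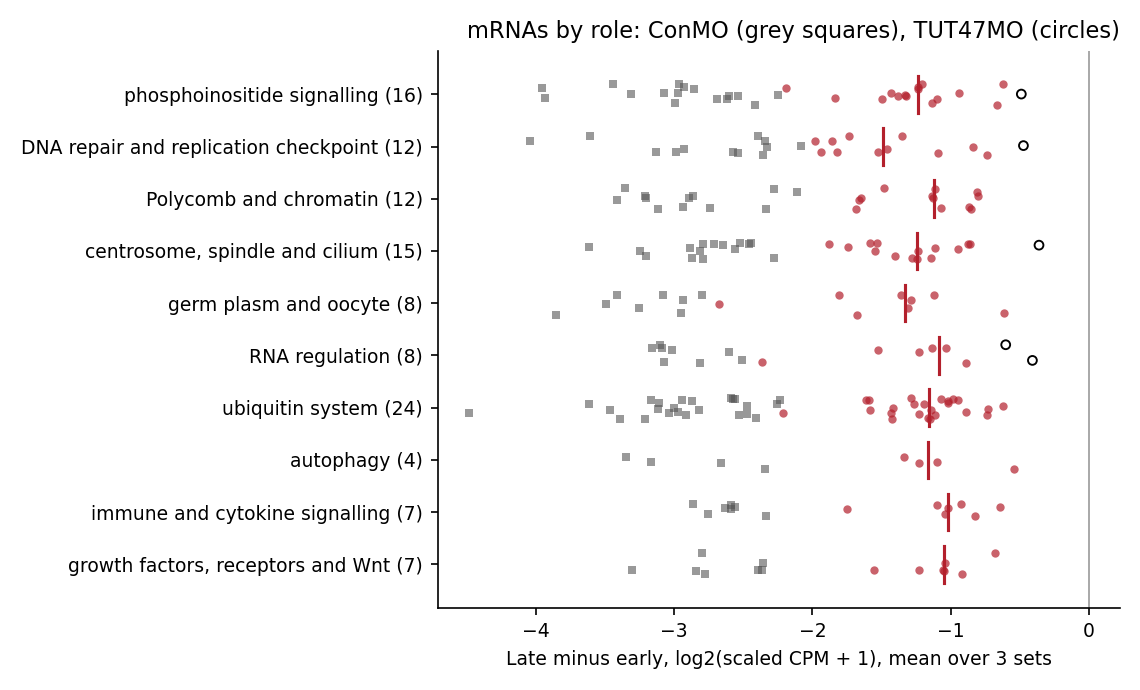
Change from early to late on the log2(scaled CPM + 1) scale, mean over 3 sets, of mRNAs grouped by role, with the number of mRNAs in brackets. Grey squares are ConMO, filled circles are TUT47MO values called lower by limma, open circles TUT47MO values not called, and red bars the TUT47MO median of a group, from −1.49 for DNA repair to −1.02 for immune and cytokine signalling.

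Of 123 matched genes of a phosphoinositide and lipid list 11 were among the 452. The 452 come from 32105 named entries, of which 7421 held at least 20 CPM in each early control. The overlap was not tested. Phosphoinositides are membrane lipids whose phosphorylated forms recruit signalling and trafficking proteins. Of 16 mRNAs of this role 15 fell in TUT47MO (median −1.24), as did 95.6% of the 452 and 18.6% of all genes tested. At 6 hpf 8 of 16 were at least 2-fold higher in TUT7MO than in TUT4MO (median 0.93, 1 library each). The shares at least 2-fold higher were 17.7% of the 452 and 3.77% of genes. Among the kinases, the gamma class was present with its catalytic subunit pik3cg (−1.13 ± 0.21, SE) and the regulatory subunit pik3r5 (−1.20 ± 0.16), and the delta catalytic subunit with pik3cd (−0.62 ± 0.14). For pik3r5 the late ConMO libraries held 3.38, 2.36 and 7.12 scaled CPM and the late TUT47MO libraries 18.2, 21.3 and 23.5. These did not overlap, as for 440 of the 452 mRNAs. The regulatory subunit pik3r3b changed by −1.50 ± 0.18, the class III kinase pik3c3, which acts in autophagy and endosomes, by −1.38 ± 0.24, and the phosphatidylinositol phosphate kinase pip5k1bb by −1.24 ± 0.19. Adjusted p by limma for these 6 ran from 0.00267 to 0.0216. The signalling adaptor pik3ap1 was at 72.8, 35.3 and 18.8 scaled CPM early and 43.8, 22.7 and 17.1 late in TUT47MO, and did not pass (−0.49 ± 0.18, limma adjusted p = 0.0942). Late ConMO libraries held 4.68, 1.58 and 3.145 scaled CPM of it, below all 3 late TUT47MO libraries.

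Phosphatases and other genes of lipid signalling were also among the 452. The phosphatase genes ocrl (−1.43 ± 0.14), mtmr1b (−1.84 ± 0.17), mtmr7a (−2.19 ± 0.21), mtmr8 (−1.10 ± 0.16) and mtmr14 (−1.33 ± 0.14) fell in TUT47MO (SE, limma adjusted p from 0.00105 to 0.00448). The phospholipase C gene plcb3 (−0.94 ± 0.17), the diacylglycerol kinase gene dgkza (−0.66 ± 0.16) and the inositol trisphosphate receptor gene itpr2 (−1.24 ± 0.15) fell as well, as did the oxysterol-binding genes osbpl2b (−1.18 ± 0.15) and osbpl3a (−1.16 ± 0.15), with limma adjusted p from 0.00248 to 0.0233. Without rs1b the calls of plcb3 (−0.91), dgkza (−0.73) and pik3cd (−0.59) were lost, and without rs1a those of dgkza (−0.74) and pik3cd (−0.57). Of the 102 other genes of the list tested, 46 were higher and 24 lower in late TUT47MO than in ConMO. Those higher included pld1a (2.76) and lipin2 (2.81), which the rule left out by name. Of all 18206 genes, 5799 were higher and 5953 lower. From early to late in TUT47MO, 12 of 96 others fell and 5 rose, against 18.6 and 11.2% of all genes tested.

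Germ plasm and oocyte mRNAs made up 8 of the 452, and all 8 fell in TUT47MO (median −1.33). Germ plasm is the maternal material that sets aside the germ line, and Tudor proteins organise its granules and the piRNA pathway. The Tudor gene tdrd1 stood at 258, 232 and 237 scaled CPM early in TUT47MO and at 160.3, 157 and 155 late, while late ConMO libraries held 28.8, 20.03 and 50.3. Its early TUT47MO, late TUT47MO and late ConMO values formed 3 ranges with no overlap (−0.62 ± 0.14 in TUT47MO, SE, limma adjusted p = 0.0219), although the call was lost without rs1a (−0.58) or rs1b (−0.65). For tdrd6, which organises the Balbiani body and germ plasm in zebrafish, late levels were 56.4, 51.1 and 60.8 scaled CPM in ConMO and 174, 198 and 199.6 in TUT47MO (−1.12 ± 0.15), and tdrkh ran at 13.7, 10.2 and 23.0 against 56.3, 49.7 and 67.0 (−1.36 ± 0.16). The oocyte growth factor gene bmp15 (−1.31 ± 0.19), the synaptonemal gene sycp2l (−1.68 ± 0.18) and the oocyte transcription factor gene lhx8a (−1.29 ± 0.21) fell too (limma adjusted p from 0.00184 to 0.00648 for these 5). Of 22 other germ plasm genes tested 16 were higher and 2 lower in late TUT47MO than in ConMO. The smallest p were those of buc (2.41), rgs14a (1.60), dnd1 (1.18) and dazl (1.23), of which buc was left out of the 452 by name. From early to late in TUT47MO 9 fell and 0 rose, against 18.6 and 11.2% of all genes tested. Of 55 other oocyte genes 30 were higher, among them mos (2.14) and slbp2 (1.92), and 10 lower. Of all 18206 genes, 5799 were higher and 5953 lower in late TUT47MO than in ConMO.

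Factors of RNA metabolism were 8 of the 452, of which 6 fell in TUT47MO (median −1.09). The gene lsm1, of the LSM complex that binds uridylated mRNA ends and promotes decapping, was at 76.2, 73.4 and 46.3 scaled CPM in early ConMO and 6.91, 5.96 and 8.37 late. In TUT47MO lsm1 went from 73.8, 70.9 and 48.4 to 20.3, 21.2 and 22.4 scaled CPM (−1.53 ± 0.19, SE, limma adjusted p = 0.00309). TUT4MO and TUT7MO held 8.40 and 12.8 scaled CPM of it at 6 hpf, so its late levels rose in the order of the morpholinos given above. PATL2, an oocyte translation repressor in vertebrates (−1.14 ± 0.15), and the vigilin gene hdlbpb (−1.23 ± 0.14) fell as well (limma adjusted p from 0.00219 to 0.00331), and so did rnasen, given above. The poly(A) polymerase gene fam46c, related to the TUT enzymes by its nucleotidyltransferase fold, held 347, 279 and 388 scaled CPM early and 269, 203 and 295 late in TUT47MO, beside 61.2, 42.1 and 73.6 in late ConMO. It did not pass in TUT47MO, nor did the RNA-binding gene arpp21 (−0.60 ± 0.19, limma adjusted p = 0.0546).

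The other genes of mRNA decay moved both ways in late TUT47MO embryos, as did genes at large. Of all 18206 genes tested, 5799 were called higher and 5953 lower than in late ConMO. On a deadenylation list with 0 of the 452, 12 of 32 genes were higher and 10 lower than in late ConMO. Here cnot7 stood at 1.76 and cnot3a at −1.62, both deadenylase complex subunits. The rule left genes out by name, so nothing is read from the 0 of the 452. On the decapping and exonuclease list, which holds lsm1, 6 of 40 others were higher and 20 lower, with lsm14b at 1.96, dcp2 at −1.46, edc3 at −1.38 and lsm6 at −1.37. Of 8 other terminal nucleotidyltransferases 3 were higher and 3 lower, with PAPD5 at 0.90, papd7 at 0.83 and papd4 at −0.62. Of 40 regulators that bind mRNA 15 were higher and 17 lower, with ybx1 at −2.40 and igf2bp1 at −2.56. The higher regulators included zar1l at 2.56, which the rule left out by name. On a list of reported miR-430 targets, which holds cd82b, 4 of 17 others were higher and 9 lower, with tdrd7a at 1.36 and ddx5 at −2.03. All genes named in these sentences passed in limma with Benjamini-Hochberg adjustment over all genes.

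DNA repair and checkpoint mRNAs numbered 12, of which 11 fell in TUT47MO, with the lowest group median (−1.49). They held the Fanconi gene fancd2 (−1.46 ± 0.16, SE), the nuclease gene ercc4 (−1.82 ± 0.18), the mismatch repair gene pms2 (−1.98 ± 0.22), the topoisomerase gene top3a (−1.94 ± 0.14), the replication helicase gene cdc45 (−1.86 ± 0.18) and mdm4, a regulator of p53 (−1.52 ± 0.14), with limma adjusted p from 0.000548 to 0.00201. The checkpoint kinase gene atr, the only one of the 452 on a cell cycle list, was at 89.45, 107 and 137 scaled CPM early in TUT47MO and 55.2, 57.7 and 87.7 late (−0.74 ± 0.14, limma adjusted p = 0.0117). Late ConMO held 16.7, 17.9 and 27.4 scaled CPM of atr, below all of these. The call of atr was lost without rs1a (−0.76) or rs1b (−0.66). Of the 75 other cell cycle genes 20 were higher and 28 lower in late TUT47MO than in ConMO. Of all 18206 genes, 5799 were higher and 5953 lower.

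Chromatin mRNAs held several subunits of Polycomb repressive complexes, which mark and compact silenced genes. All 12 fell in TUT47MO (median −1.12). They included bmi1a (−0.87 ± 0.15, SE), bmi1b (−1.49 ± 0.19), cbx8b (−1.14 ± 0.16) and the phc2b entries, next to the demethylase gene kdm4ab (−1.12 ± 0.15) and the methyltransferase gene smyd2a (−1.69 ± 0.20), with limma adjusted p from 0.00247 to 0.00892. The paralogs bmi1a and bmi1b stood at 29.3 ± 12.5 and 11.3 ± 7.74 scaled CPM in late ConMO and at 119 ± 17.3 and 40.4 ± 10.7 in late TUT47MO (SD, n = 3). Of the 12 chromatin mRNAs 10 were called without rs1a, 9 without rs1b and 6 with the deposited scaling.

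Centrosome, spindle and cilium mRNAs numbered 15, of which 14 fell (median −1.24) and camsap1b did not pass. The centriole anchoring gene nin stood at 59.3 ± 33.2 scaled CPM in late ConMO and 204 ± 74.1 in late TUT47MO (SD, n = 3), with a fall of −1.12 ± 0.17 in TUT47MO (SE, limma adjusted p = 0.00535). The augmin subunit gene haus6 (−1.24 ± 0.15), the midzone gene prc1b (−1.24 ± 0.14), the centrosomal gene cep57l1 (−1.53 ± 0.14) and the ciliary transport gene ift88 (−1.88 ± 0.21) fell with it (limma adjusted p from 0.00107 to 0.00271).

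The ubiquitin system was the largest of the 10 role groups, with 24 mRNAs that all fell in TUT47MO (median −1.16), beside 95.6% of all 452 mRNAs. It held the deubiquitinase genes usp20 (−1.41 ± 0.15, SE) and usp45 (−1.15 ± 0.14), the scaffold gene cul5a (−1.19 ± 0.14), the substrate adaptor spop (−1.29 ± 0.17), the Wnt receptor ligase znrf3 (−1.61 ± 0.15) and the ligase trim37 (−1.26 ± 0.18), with limma adjusted p from 0.0012 to 0.00408. The gene trim35-29 had the largest fall in ConMO among all 452 (−4.49) and changed by −2.21 ± 0.25 in TUT47MO (limma adjusted p = 0.00223). Autophagy genes fell in 4 of 4 (median −1.17), among them the initiating kinase ulk1a (−1.10 ± 0.15, limma adjusted p = 0.00345). Of the 24 ubiquitin system mRNAs 18 were called without rs1a, 19 without rs1b and 13 with the deposited scaling, and dcun1d1 (−0.85 and −0.86) was among those that lost the call.

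The other signalling groups were smaller. Immune and cytokine genes fell in 7 of 7 (median −1.02), with nfkb2 at −1.75 ± 0.15 (SE, limma adjusted p = 0.000832), but 4 of them were called without rs1a, 2 without rs1b and 1 with the deposited scaling. Growth factor, receptor and Wnt genes fell in 7 of 7 (median −1.05), with ntn4 at −1.23 ± 0.15 and the Dishevelled-binding gene dixdc1b at −1.56 ± 0.16 (limma adjusted p = 0.00279 and 0.00154), of which 6 were called without rs1a, 4 without rs1b and 2 with the deposited scaling. The transcription factor gene otx1b was the only one of the 452 on a list of early zygotic genes. It stood at 112, 64.2 and 148 scaled CPM in early ConMO and 26.7, 13.8 and 29.3 late, and at 63.1, 26.3 and 62.5 in late TUT47MO. Of the 89 other genes of that list tested, 63 were lower and 6 higher in late TUT47MO than in ConMO. Of all 18206 genes, 5953 were lower and 5799 higher. From early to late in TUT47MO, 73 of 86 others rose and 1 fell, against 11.2 and 18.6% of all genes tested.

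Maternal mRNAs that were cleared earlier or less showed the same order of groups. The 52 mRNAs that met the early and late conditions but had already lost 50% or more by 4 hpf kept a median of 6.60, 7.72 and 13.3% of the early level in late ConMO and 19.2, 24.98 and 31.4% in late TUT47MO. A further 1494 mRNAs, left at between 16.7 and 50% by the CPM of the rule, kept 40.8, 38.1 and 48.6% in late ConMO and 68.2, 68.0 and 76.1% in late TUT47MO, with 50.1% in TUT4MO and 60.5% in TUT7MO at 6 hpf. The 452 mRNAs, at 12.3, 10.9 and 17.4% against 41.4, 43.3 and 49.0%, lay between them. These classes were cut from control values, so their order is a description.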

How the data were processed

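Total RNA of 20 zebrafish embryo libraries was extracted with TRIzol, given ERCC spike-in RNA, depleted of rRNA and sequenced as stranded paired-end libraries, per the labels' protocols. Tools named in the submitters' processing notes are STAR 2.5.3a and RSEM with GRCz10; their settings are not stated in these sources. The authors deposited 1 table of 32660 entries, with expected (estimated) counts in rs1b. The columns of rs1a and rs2 were deposited as a signal: judged by low values, an estimated count times 1 factor per library (0.38 to 2.03), for which no source used here gives an origin. Dividing by that factor made 84.1 to 90.7% of values up to 20 reads whole within 0.02. The 555 entries (1.7%) without a name or values were left out. Coordinates and sequences are not given, since a genome was not used here.

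Because the units were mixed, the planned count test gave way to limma 3.58.1 (trend) on log2(scaled CPM + 1), with TMM from edgeR 4.0.16 and filterByExpr at a minimum count of 10, in R 4.3.3. Genes were called at a Benjamini-Hochberg adjusted p under 0.05 over all genes. TUT47MO late against early had set as block. TUT47MO against ConMO had 6 pairs of set and time as block, and early and late pairs shared 1 estimate of the spread. The rs1a fit had time as block. Sets pair libraries, as the series text calls them independent (it writes rs2b where the labels have rs1b); deviations of libraries of 1 set from their group means correlated at 0.37 to 0.93 across genes. The fits of TUT47MO late against early and of TUT47MO against ConMO were run on simulated data, and the rs1a fit was not. The simulated data had a fixed dispersion and no set effect, unlike these data. They therefore check the code and not the calls. CPM of the rule is reads over the library total without 2 mitochondrial rRNA entries. Intervals of counting error were not needed for any single-library share.

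The 452 members, the 14 gene lists and the role groups were chosen with earlier results of these data known. Named mRNAs, with no clone or prediction name, are the 8 highest in early ConMO, the 6 smallest and 6 largest falls in TUT47MO, the 4 highest and 4 lowest TUT7MO minus TUT4MO at 6 hpf, the 3 genes on each side of the late limit and members of lists, with up to 4 other genes per list by smallest late p. Other names in the text were chosen after their values were seen. The reference name table held 440 of the 452 gene IDs, and 11 members carry a symbol found on more than 1 entry. Alternatives were median-of-ratios and no TMM scaling, pseudocounts of 0.1 and 5, no filter or a minimum count of 50, edgeR and DESeq2 1.42.0 on rounded reads, no block, each set left out, and other limits of the rule. The deposited scaling and the 6 hpf fit were added after seeing the data. A further role group is not reported here.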

Additional observations from a re-analysis of the deposited data

Results flagged for a closer look

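In the model of TUT47MO against ConMO, 442 of the 452 mRNAs had a larger effect in the late than in the early pairs by the test of that difference itself (limma, Benjamini-Hochberg adjusted p under 0.05), with a median difference of 1.68 beside 0.02 over all genes. The mRNAs were selected on low late and high early ConMO values, and these libraries enter the test, so the count is a description. Over all 18206 genes the same test called 4422 higher and 4675 lower.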

How the results depend on the processing

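Direction held throughout, with 0 results reversed. The count of mRNAs called lower late than early in TUT47MO (432) was 234 with the deposited scaling, 286 to 444 without 1 set (lowest without rs1b), 399 with median-of-ratios scaling, 416 with edgeR and 397 with DESeq2. Without the set as replicate block it was 334, and the count higher in late TUT47MO than ConMO (450) was 438, so the pairing by set moved neither by over 1.5 times. That second count was 439 to 449 without 1 set and 447 to 451 under the other scalings. Over all genes the first count was 3107, with 1046, 1224 to 4841, 2395, 2685 and 2268 in the order given. Without block it was 1671. The second count over all genes was 5799, and 3584 without block. It was 3929 to 6643 without 1 set and 5377 to 7830 under the other scalings. As a mean over sets of set medians, the change in TUT47MO (−1.14) was −1.002 with median-of-ratios scaling, −0.95 and −1.33 for mRNAs at or under 1/4 and 1/8 of the early ConMO level, and −1.21 to −1.09 without 1 set. The late difference from ConMO (1.72) was 2.10 without TMM, 2.13 with the deposited scaling, 1.36 with a pseudocount of 5, 1.47 at 1/4 of the early level and 1.62 to 1.84 without 1 set. Between TUT7MO and TUT4MO the counts of 0 higher and 0 lower became 358 and 3 with an effect at 6 hpf only, a fit added after seeing the data. The cause of these shifts was not tested. Of 572 values of 44 named mRNAs under 13 alternatives, 512 stayed on the same side of the threshold (called or not), 53 lost the call and 7 gained it.

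The spread comes from 3 sets whose late libraries mix 5 and 6 hpf, and single-morpholino groups have 1 library per time. Low late values (medians of 7.65 to 12.2 scaled CPM in ConMO) limit the precision of ratios. CPM is relative, so no value is an amount per embryo.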
